A study of Mus musculus with 21 samples.

Results

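The 10 genes described here are Grin1, Grin2b, Grin2c, Grin2d and Grin3a, which encode NMDA receptor subunits, and Grik1, Grik2, Grik3, Grik4 and Grik5, which encode kainate receptor subunits. They were taken by symbol from the deposited table of read counts, 10 of its 21878 rows, without regard to their values, and the list does not take in every subunit of the families. The cells were spiral ganglion neurons, which link hair cells to the brain stem, taken from postnatal day 7 mice by micropipette, with about 50 neurons in each Smart-seq2 library of polyadenylated RNA. The neurons carried an adeno-associated virus with a site-mutated HCN2 channel (DN-mHCN2 in the labels, DN-HCN2 here; 3 libraries of the cochlear base and 4 of the apex) or with a truncated SK3 channel (3 of the base and 3 of the apex), both given as dominant negative. The control carried the same kind of virus with EGFP and is labelled WT (4 of the base and 4 of the apex). HCN2 passes cations when a cell is hyperpolarized, SK3 passes potassium when calcium rises inside it, and the comparisons ask how the transcripts of developing auditory neurons differ when either is disturbed. The sources used here give neither the promoter of the virus nor the animals behind each library, so p-values measure the spread between libraries.

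Both families are glutamate-gated cation channels assembled from several subunits. An NMDA receptor needs GluN1, the product of Grin1, which binds the co-agonist glycine or D-serine, together with GluN2 or GluN3 subunits that set its kinetics and magnesium block. Glutamate is bound by the GluN2 subunits. Kainate receptors form from GluK1 to GluK3 alone or with GluK4 and GluK5, which have high affinity for kainate and do not make working channels by themselves. In spiral ganglion neurons the fast transmission from inner hair cells is carried by AMPA receptors, and NMDA and kainate receptors are known at the same synapses.

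Library totals ran from 10411634 to 15138780 counts. The 12 spiral ganglion neuron markers gave summed levels of 8838 to 18180 CPM (counts scaled to equal library totals after TMM normalization) in the 21 libraries, so the labelled cell type was present in each. Markers of Schwann and satellite glia were as abundant, at 10510 to 47030 CPM. Oligodendrocyte markers, near absent in the apex (2.10 to 89.7 CPM), reached 13.3 to 106 CPM in DN-HCN2 base, 62.1 to 4625 CPM in truncated SK3 base and 28.1 to 1854 CPM in control base. Replicates 2 and 3 of DN-HCN2 base held 1394 and 1629 CPM of macrophage markers, replicate 1 of DN-HCN2 apex held 10800 CPM of supporting cell markers, and replicate 1 of DN-HCN2 base held 7782 CPM of fibroblast markers. All 10 subunit genes passed the filter on low counts, 10 counts in enough libraries or 0.764 CPM.

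Grin1 was by far the most abundant of the 10 transcripts per exon length. It averaged 11.5 ± 3.06 CPM per kilobase of exons (SD, n = 21 libraries) and was the highest of the 10 genes in 20 of 21 libraries, the exception being replicate 1 of DN-HCN2 base. On the same scale the high-affinity kainate subunits came next, with Grik5 at 3.72 ± 2.03 and Grik4 at 2.05 ± 0.882 CPM per kilobase. The other listed NMDA subunits were lower, with Grin2d (GluN2D) at 0.825 ± 0.558, Grin3a (GluN3A) at 0.447 ± 0.333, Grin2c (GluN2C) at 0.318 ± 0.435 and Grin2b (GluN2B) at 0.0592 ± 0.115 CPM per kilobase. Grin2a and Grin3b are not on the list. Among the kainate subunits that can form channels alone, Grik3 averaged 0.489 ± 0.728, Grik2 0.300 ± 0.274 and Grik1 0.238 ± 0.424 CPM per kilobase. From Grin2d down, the SD of each gene between libraries exceeded its gap to the next. The order of neighbours below Grik4 was not tested. Grik5 and Grik4 also overlapped, since Grik5 lay above Grik4 in 15 of 21 libraries.

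**Figure D1:**
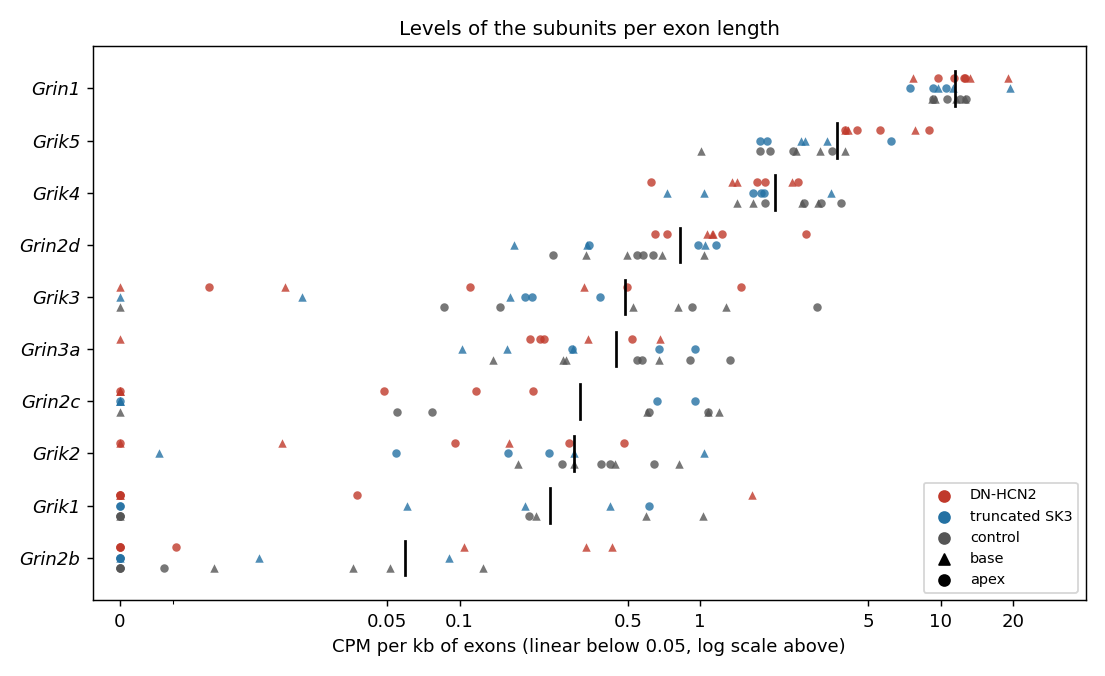
Level of each subunit gene in the 21 libraries, in CPM per kilobase of exons on an axis that is linear below 0.05 and logarithmic above, with genes ordered by mean (black bar), color for DN-HCN2, truncated SK3 and control, triangles for base and circles for apex. Grin1 lies at 7.45 to 19.4 CPM per kilobase, Grik5 reaches 8.97, and the 6 lowest genes each have libraries at 0.

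Grin1 made up 87.1 ± 5.66% of the summed CPM per kilobase of the 5 listed NMDA subunits (range 77.9 to 96.7%), and Grik4 with Grik5 made up 85.2 ± 11.1% of that of the 5 kainate subunits (58.1 to 100%). The summed levels were 13.2 ± 3.04 CPM per kilobase for the listed NMDA subunits and 6.79 ± 2.04 for the kainate subunits. The AMPA receptor genes Gria1 to Gria4, which encode the fast synaptic receptors, summed to 28.3 ± 7.15 CPM per kilobase. These shares describe transcripts of whole libraries, in which fewer cells of a type and less RNA per cell cannot be told apart.

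The 3 genes that the results turn on are shown with the 250 bases before their RefSeq start sites, Grik5 and Grin2c because they passed a test under DN-HCN2 and Grin1 because it is the shared and most abundant subunit. Capitals mark the GC box GGGCGG, searched on both strands with overlapping matches counted. The windows are from RefSeq on GRCm38.p6, are written along the gene's strand (all 3 are minus), and lie at chr7:25072370-25072619 for Grik5, chr11:115267244-115267493 for Grin2c and chr2:25319188-25319437 for Grin1.
Grik5: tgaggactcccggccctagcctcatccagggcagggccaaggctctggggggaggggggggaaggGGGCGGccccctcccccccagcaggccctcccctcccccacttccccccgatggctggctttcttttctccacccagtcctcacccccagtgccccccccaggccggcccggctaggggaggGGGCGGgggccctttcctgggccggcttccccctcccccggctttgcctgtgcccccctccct
Grin2c: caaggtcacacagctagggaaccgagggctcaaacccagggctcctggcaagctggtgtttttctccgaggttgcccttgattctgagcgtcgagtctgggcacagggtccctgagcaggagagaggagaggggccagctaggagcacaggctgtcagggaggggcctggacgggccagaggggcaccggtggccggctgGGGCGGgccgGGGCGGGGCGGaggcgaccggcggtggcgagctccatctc
Grin1: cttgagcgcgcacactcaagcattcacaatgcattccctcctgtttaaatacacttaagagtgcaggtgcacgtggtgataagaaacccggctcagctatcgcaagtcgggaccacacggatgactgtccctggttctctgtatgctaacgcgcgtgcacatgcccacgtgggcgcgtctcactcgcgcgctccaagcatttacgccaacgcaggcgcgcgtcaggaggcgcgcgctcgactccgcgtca
The Grik5 window held 2 GC boxes at 75.2% G and C, the Grin2c window held 3, of which 2 share 1 letter, at 68.8%, and the Grin1 window held none at 58.8%. Of 32851 RefSeq mouse promoter windows of the same length, 32.7% held a GC box. None of the 3 windows held the TATA box TATAAA, found in 12.4% of all windows, or the cAMP response element TGACGTCA, found in 1.55%. Entries were at hand for 7 of the 10 genes, and Grik3, Grik4, Grin2d and Grik2 held 6, 1, 0 and 0 GC boxes, with neither of the other motifs. These matches are a description of letters in the windows.

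Under DN-HCN2, Grik5 was called higher and Grin2c lower with the 2 regions averaged, and the other 8 subunit genes did not pass the test. That is 1 of 10 genes called higher beside 2.45% of all 14968 tested genes, and 1 of 10 called lower beside 3.61%, or 2 of 10 in either direction beside 6.05%, at an edgeR false discovery rate of 0.05. Neither gene was called by edgeR in base or apex alone. Counting each library left out, the Grik5 call was lost under 12 alternatives and kept under 12. The Grin2c call was lost under 20 and kept under 3. Grin1, on which every NMDA receptor depends, was not called. The median log2 fold change of the 10 genes was -0.67, beside 0.03 over all tested genes. By region it was -0.881 in the apex and 0.135 in the base. Such a median weighs each gene alike, whatever its level. Summed CPM per kilobase of the listed NMDA subunits averaged 15.08 in DN-HCN2 base and 13.29 in DN-HCN2 apex, against 12.5 and 12.95 in control.

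Grik5 (chr7:25009849-25072346, minus strand, GRCm38) encodes GluK5, a high-affinity kainate receptor subunit. In the base it had 40.4, 20.7 and 21.4 CPM in the DN-HCN2 libraries, against 12.99, 20.7, 5.23 and 16.3 CPM in the control libraries. In the apex it had 20.8, 28.9, 46.4 and 23.3 CPM in the DN-HCN2 libraries, against 10.1, 18.2, 9.15 and 12.6 CPM in the control libraries. Every DN-HCN2 apex library was above every control apex library, as 4.59% of all tested genes were, while in the base the lowest DN-HCN2 library and the highest control library nearly coincided. Averaged over the regions, its log2 fold change came to 1.12 (edgeR adjusted p = 0.0402, SE 0.32). In the base alone it was 0.99 (edgeR adjusted p = 0.255, SE 0.46), the apex alone gave 1.25 (edgeR adjusted p = 0.267, SE 0.44), and the difference between the regional effects was -0.26 (edgeR adjusted p = 0.978, SE 0.63). The call was lost, with the fold change between 0.93 and 1.16, when replicate 1 of DN-HCN2 base was left out (0.0929 as edgeR adjusted p) and likewise without replicates 2 or 3 of DN-HCN2 apex (0.0578 and 0.0573), replicates 1, 3 or 4 of control base (0.0670, 0.0650 and 0.0645) or replicates 1, 3 or 4 of control apex (0.0821, 0.0831 and 0.0740). It was also lost with a correction for GC content and length (1.09, edgeR adjusted p = 0.0629).

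Markers of other cells moved with the same comparison. All 10 supporting cell markers had positive fold changes under DN-HCN2 over both regions, 2 of them called, and their sums ran from 345 to 2527 CPM in DN-HCN2 base and 891 to 10800 CPM in DN-HCN2 apex, against 131 to 499.8 CPM in control base and 546 to 2406 CPM in control apex, with no marker at 0 throughout a group. Without replicate 1 of DN-HCN2 base and replicate 1 of DN-HCN2 apex, the 2 libraries richest in fibroblast or supporting cell markers, the log2 fold change of Grik5 was 1.00 (edgeR adjusted p = 0.0906). Without the 2 libraries rich in macrophage markers it was 1.41 (edgeR adjusted p = 0.0459).

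Grik4 encodes GluK4, the other high-affinity subunit, and was not called. In the base it had 8.10, 8.53 and 14.3 CPM under DN-HCN2, against 9.94, 18.4, 15.9 and 8.51 CPM in control. Its apex levels were 11.1, 15.2, 3.73 and 10.3 CPM under DN-HCN2, against 23.1, 11.1, 16.1 and 19.0 CPM in control. The groups overlapped in both regions, and the log2 fold change over both was -0.57 (edgeR adjusted p = 0.357, SE 0.34; 95% interval -1.24 to 0.11).

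The make-up of the kainate receptor transcripts can be given as shares. On the scale of CPM per kilobase, Grik5 exceeded Grik4 in 7 of 7 DN-HCN2 libraries and in 4 of 6 truncated SK3 libraries, against 4 of 8 control libraries. Grik5 made up 68.1 ± 4.23% of the 5 kainate subunits in DN-HCN2 base (n = 3), 56.5 ± 18.6% in truncated SK3 base (n = 3) and 39.7 ± 11.6% in control base (n = 4). In the apex its share was 69.6 ± 16.4% under DN-HCN2 (n = 4), 53.4 ± 17.6% under truncated SK3 (n = 3) and 34.9 ± 4.54% in control (n = 4). Every DN-HCN2 library, at 55.4 to 92.4%, lay above every control library, at 22.8 to 48.0%. The CPM of Grik5 itself overlapped between the 7 DN-HCN2 and 8 control libraries. The shares depend on all 5 kainate genes, the low and uneven Grik1, Grik2 and Grik3 included, and were given no test of their own. In replicate 2 of control apex, Grik4 with Grik5 made up 58.1% of the sum. No share over all tested genes stands beside this separation. The summed level of the 5 kainate genes overlapped between the groups, at 5.62 to 11.2 CPM per kilobase in DN-HCN2 base and 6.40 to 10.1 in DN-HCN2 apex, against 4.44 to 8.68 in control base and 5.67 to 9.28 in control apex.

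**Figure D2:**
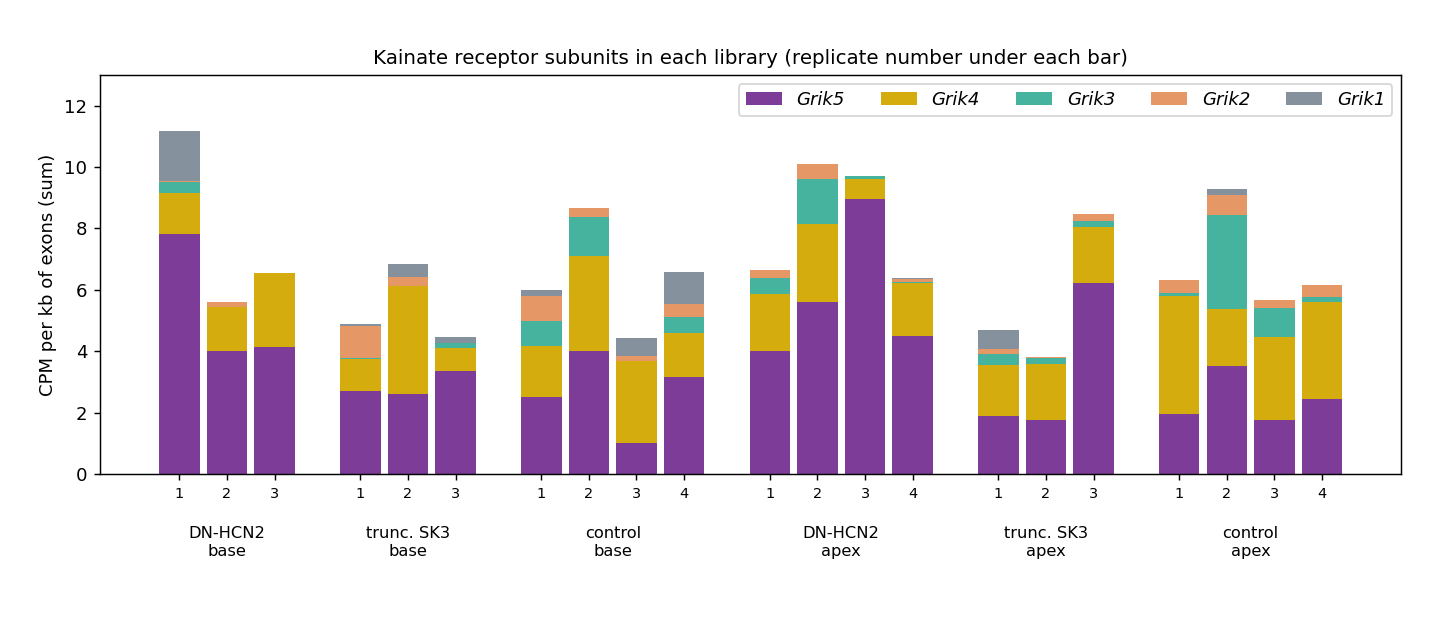
Stacked levels of Grik5, Grik4, Grik3, Grik2 and Grik1 in each library, in CPM per kilobase of exons, with the replicate number under each bar and groups in the order DN-HCN2, truncated SK3 and control for base and then apex. Grik5 (bottom segment) fills 55.4 to 92.4% of the bar in the DN-HCN2 libraries and 22.8 to 48.0% in the control libraries. These shares were given no test, and the CPM of Grik5 itself overlapped between DN-HCN2 and control libraries.

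The 3 kainate subunit genes whose products can form channels alone were low and uneven. Grik2 (GluK2) had 0.402, 2.13 and 0 CPM in DN-HCN2 base, against 10.8, 3.96, 2.31 and 5.84 CPM in control base. The groups did not overlap, as was so for 9.03% of tested genes in that direction, but the test did not pass (log2 fold change -2.76, SE 1.44, edgeR adjusted p = 0.314). In the apex Grik2 had 3.79, 6.40, 0 and 1.27 CPM under DN-HCN2, against 5.57, 8.49, 3.52 and 5.14 CPM in control, and the groups overlapped. Grik3 (GluK3) ran from 0 to 2.95 CPM in DN-HCN2 base and 0.149 to 13.3 CPM in DN-HCN2 apex, against 0 to 11.5 CPM in control base and 0.774 to 27.4 CPM in control apex. Grik1 (GluK1) was at 0 in 2 of 3 DN-HCN2 base libraries and 11.1 CPM in the third, and at 0 to 0.299 CPM in DN-HCN2 apex, against 0 to 6.90 CPM in control base and 0 to 1.31 CPM in control apex. Over both regions the log2 fold changes of Grik2, Grik3 and Grik1 were -1.87, -1.71 and -0.87, with SEs of 0.93, 1.11 and 1.498, and none was called (edgeR adjusted p = 0.244, 0.396 and 0.782).

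**Figure D3:**
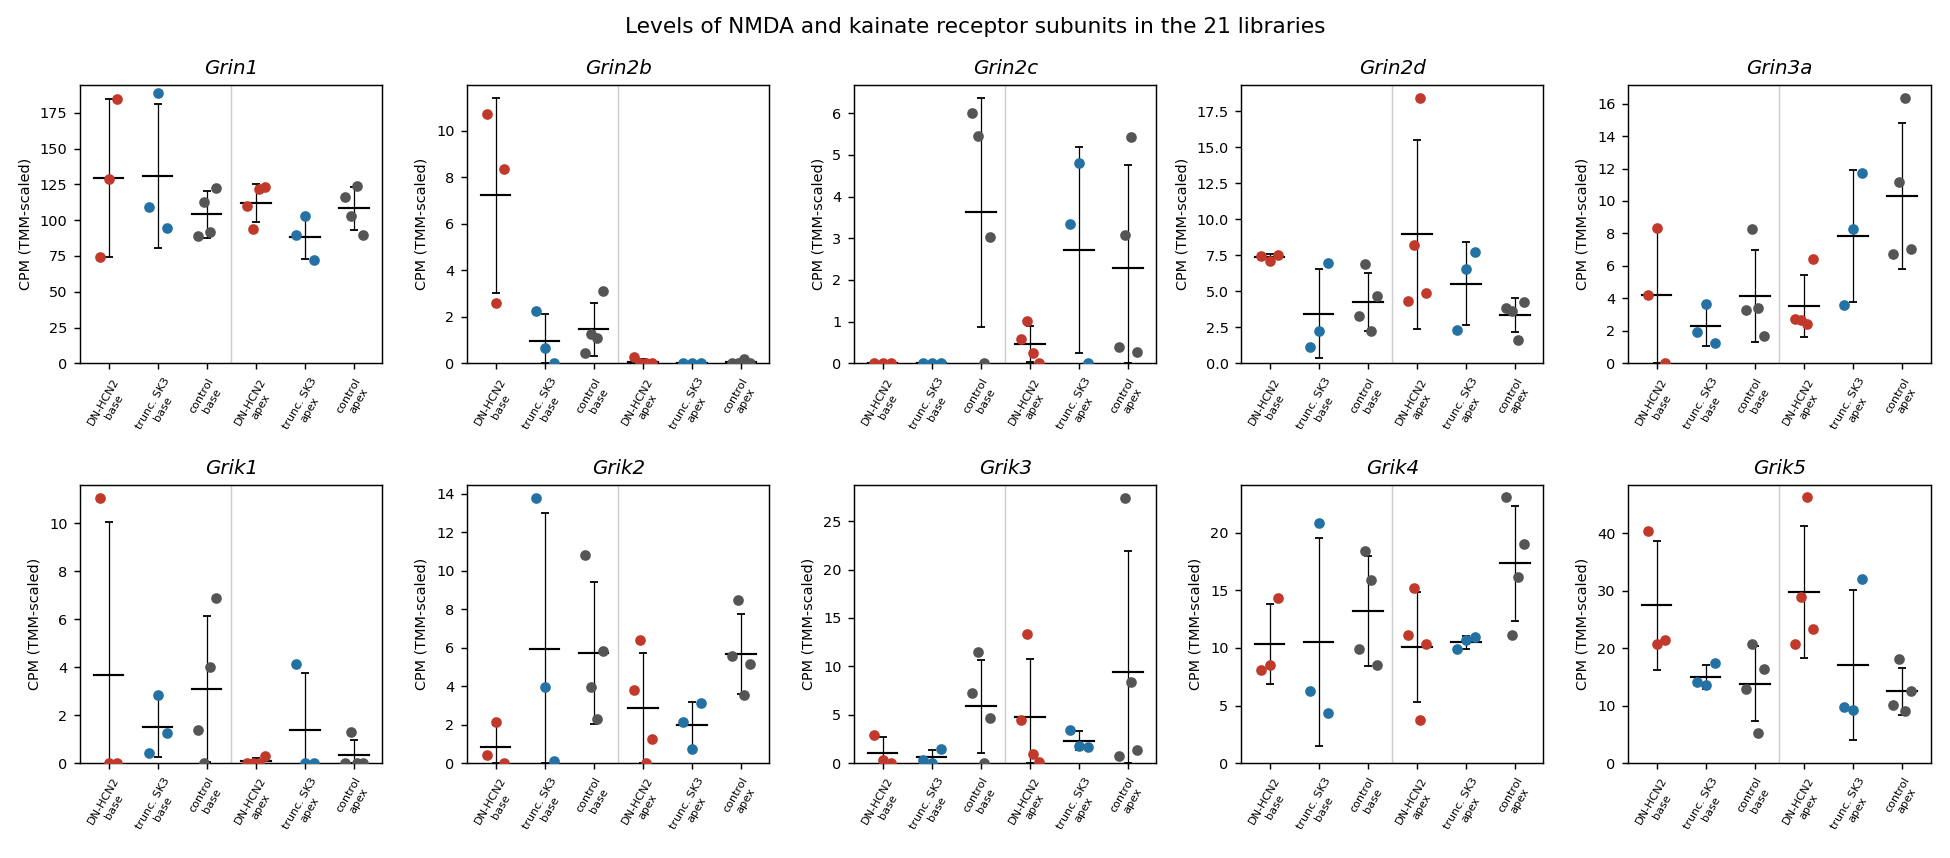
CPM of each subunit gene in the 21 libraries (points), with the group mean (bar) and SD (whiskers, cut at 0), base groups left of the grey line and apex groups right, each in the order DN-HCN2, truncated SK3 and control. Grik5 in DN-HCN2 apex (20.8 to 46.4 CPM) lies above control apex (9.15 to 18.2 CPM), and Grin2b is seen almost only in base libraries.

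Grin1 (chr2:25291181-25319187, minus strand) had 74.6, 129 and 185 CPM in DN-HCN2 base, against 89.2, 113, 91.8 and 123 CPM in control base. Its apex levels were 109.7, 94.2, 122 and 123 CPM under DN-HCN2, against 116, 103, 124 and 89.8 CPM in control. The groups overlapped in both regions, with the DN-HCN2 base libraries spread on either side of control. Over both regions its log2 fold change came to 0.18 (edgeR adjusted p = 0.592, SE 0.17), with a 95% interval of -0.16 to 0.52, and it was -0.20 without the 2 macrophage-rich libraries. An antisense gene, Grin1os, overlaps 1307 exon bases of Grin1 on the other strand, and the sources used here do not say whether strand was used in counting.

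Grin2c (chr11:115249169-115267243, minus strand) encodes GluN2C, a GluN2 subunit known for weak magnesium block. It was at 0 in all 3 DN-HCN2 base libraries, against 6.01, 5.44, 0 and 3.03 CPM in control base. Apex libraries had 0.588, 1.02, 0.249 and 0 CPM under DN-HCN2, against 0.387, 3.09, 5.42 and 0.278 CPM in control. No library held more than 80 counts of the gene, and the groups overlapped in both regions because 1 control base library was at 0 and 2 control apex libraries were below 0.4 CPM. Pooled over the libraries of a group, Grin2c was at least 42.3-fold lower in DN-HCN2 base than in control base, taking 3 counts over the group as the floor. The fitted log2 fold change, which depends on the prior count and is no bound, came to -5.41 with both regions averaged (edgeR adjusted p = 0.0498, SE 1.56). In the base alone the fitted value was -8.55 (edgeR adjusted p = 0.0956, SE 2.68, with 1 group at 0), in the apex alone it was -2.28 (edgeR adjusted p = 0.656, SE 1.65), and the difference between the regional effects was -6.28 (edgeR adjusted p = 0.716, SE 2.83). The call over both regions was lost without any 1 of 14 of the 15 libraries (edgeR adjusted p = 0.0533 to 0.0989) and kept only without replicate 3 of control base (0.0375), with the fold change between -5.76 and -4.99 in each case. It was also lost, with the fold change between -5.46 and -5.33, with RLE size factors (0.0503), no low-count filter (0.0535), the GC and length correction (0.0639), and without the macrophage-rich (0.246) or the supporting cell and fibroblast-rich (0.105) libraries, all as edgeR adjusted p.

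Oligodendrocyte markers were also lower in DN-HCN2 base than in control base, with 7 of 7 fold changes negative and 1 called. Replicates 1, 2, 3 and 4 of control base had 6.01, 5.44, 0 and 3.03 CPM of Grin2c. Their oligodendrocyte markers summed to 1854, 28.1, 1487 and 949 CPM, in the same order. In truncated SK3 base, where every library had 0 CPM of Grin2c, these markers summed to 4625, 62.1 and 128 CPM. Their part in the Grin2c difference was not tested.

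Grin2d (GluN2D, a subunit that gives slow deactivation) had 7.43, 7.14 and 7.52 CPM in DN-HCN2 base, against 3.31, 6.93, 2.24 and 4.64 CPM in control base. Its apex levels were 4.31, 8.23, 18.4 and 4.86 CPM under DN-HCN2, against 3.87, 3.63, 1.63 and 4.24 CPM in control. The DN-HCN2 libraries were above those of control in each region, as 8.02% of tested genes were in the base and 4.59% in the apex, but not across regions. Averaged over the regions, the log2 fold change of 1.10 (SE 0.47) did not pass (unadjusted p = 0.0282, edgeR adjusted p = 0.167).

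Grin3a (GluN3A, a subunit of young neurons that lowers calcium flow) had 4.22, 8.34 and 0 CPM in DN-HCN2 base, against 3.31, 8.27, 3.39 and 1.69 CPM in control base. Apex libraries had 2.74, 2.65, 2.41 and 6.42 CPM under DN-HCN2, against 6.73, 11.2, 16.3 and 7.02 CPM in control. The apex groups did not overlap, with DN-HCN2 below control as for 4.88% of tested genes, and the base groups did. In log2 terms it differed by -1.53 in the apex (edgeR adjusted p = 0.515, SE 0.87) and by -0.76 over both regions (edgeR adjusted p = 0.524, SE 0.63), and neither passed.

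Taken region by region, no subunit gene was called under DN-HCN2 by edgeR, beside 2.14% of tested genes in the base and 0.2% in the apex. At an unadjusted p under 0.05 there were 2 of 10 in the base (Grin2c and Grik5), beside 18.5% of tested genes, and 2 of 10 in the apex (Grik5 and Grin2d), beside 11.9%. DESeq2 called 1 in the base (Grin2c, adjusted p = 0.00860) and 0 in the apex. No effect of DN-HCN2 differed between base and apex by edgeR (0 of 10, beside 0.00668% of tested genes). At an unadjusted p under 0.05 there was 1, Grin2c, beside 6.85% of tested genes, and DESeq2 called 0.

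Under truncated SK3, none of the 10 subunit genes was called over both regions, beside 0.735% of tested genes. At an unadjusted p under 0.05 there were 2, Grin2c and Grik3, beside 10.3% of tested genes, and DESeq2 called 0. Counts were also 0 in the base, beside 0.147% of tested genes, and 0 in the apex, beside 0.254%. At an unadjusted p under 0.05 there was 1 in the base (Grin2c), beside 5.51% of tested genes, and none in the apex, beside 8.51%, and DESeq2 called 0 in each. The median log2 fold change of the 10 genes was -0.58, beside 0.01 over all tested genes.

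Grin1 had 109, 189 and 94.7 CPM in truncated SK3 base, against 89.2 to 123 CPM in control base. Its apex levels were 89.9, 103 and 72.3 CPM under truncated SK3, against 89.8 to 124 CPM in control. The groups overlapped, and with both regions averaged the log2 fold change was 0.02 (edgeR adjusted p = 0.994, SE 0.18), with a 95% interval of -0.34 to 0.37. Its sign turned with single libraries left out, within -0.17 to 0.11.

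Grin2c was at 0 in all 3 truncated SK3 base libraries, as it was under DN-HCN2, and had 3.35, 4.81 and 0 CPM in truncated SK3 apex. Against control base it was at least 37.6-fold lower in truncated SK3 base, with the same floor, and the fitted log2 fold change with both regions averaged was -4.15 (edgeR adjusted p = 0.325, SE 1.55). The comparisons of the constructs share their control libraries, 3 of 4 of which in the base held the gene.

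Grik3 had 0.306, 0 and 1.45 CPM in truncated SK3 base, against 7.23, 11.5, 0 and 4.71 CPM in control base. Apex libraries had 3.43, 1.80 and 1.68 CPM under truncated SK3, against 0.774, 27.4, 8.34 and 1.32 CPM in control. The groups overlapped in both regions, and replicate 2 of control apex stood far above the other libraries. With both regions averaged, the log2 fold change came to -2.67 (edgeR adjusted p = 0.446, SE 1.22). In the same library order, 5 markers of type II spiral ganglion neurons summed to 4.39, 2.42 and 1.35 CPM in truncated SK3 base. Control base had 32.2, 150, 23.6 and 11.4 CPM of them. In the apex the sums were 73.5, 9.12 and 15.2 CPM under truncated SK3, against 59.6, 133, 52.5 and 14.3 CPM in control. The part of these neurons in the Grik3 levels was not tested.

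In the apex 2 kainate subunit genes had lower levels in every truncated SK3 library than in every control library, beside 6.77% of tested genes. Grik2 had 2.11, 0.718 and 3.11 CPM under truncated SK3, against 3.52 to 8.49 CPM in control apex. Grik4 had 9.86, 10.7 and 10.9 CPM under truncated SK3, against 11.1 to 23.1 CPM in control apex. Neither passed the test in the apex, and in the base both overlapped, with Grik4 at 6.22, 20.8 and 4.35 CPM and Grik2 at 13.8, 3.96 and 0.0967 CPM under truncated SK3, against 8.51 to 18.4 CPM of Grik4 and 2.31 to 10.8 CPM of Grik2 in control.

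Grik5 had 14.1, 13.6 and 17.4 CPM in truncated SK3 base and 9.77, 9.19 and 32.2 CPM in truncated SK3 apex. All but replicate 3 of the apex fell within the control range of 5.23 to 20.7 CPM. With both regions averaged, the log2 fold change came to 0.28 (edgeR adjusted p = 0.851, SE 0.33), and it was -0.14 without that replicate. For Grin2b, Grin2d, Grin3a and Grik1, the log2 fold changes over both regions ran from -1.65 to 0.51 with edgeR adjusted p from 0.682 to 0.961.

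**Figure D4:**
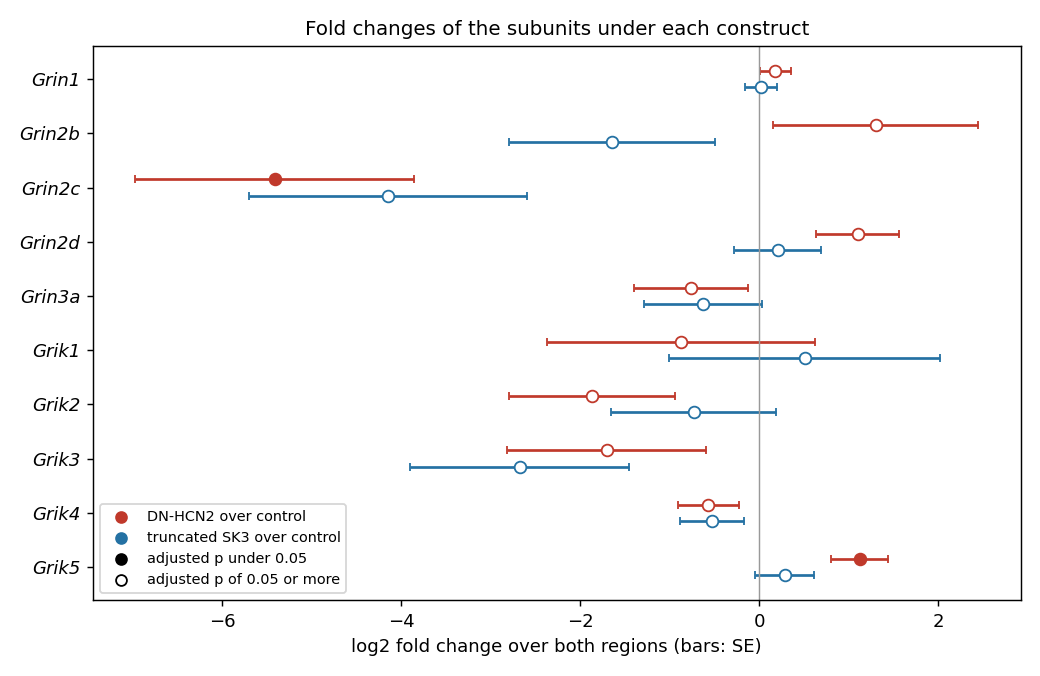
Log2 fold change of each subunit gene over both regions (points, with SE as bars) for DN-HCN2 over control (above) and truncated SK3 over control (below), with filled points for an edgeR adjusted p under 0.05. Grik5 at 1.12 and Grin2c at -5.41 under DN-HCN2 are the only filled points, and both comparisons use the same 8 control libraries.

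A direct comparison of the constructs called none of the 10 genes, beside 0.655% of tested genes. Before adjustment 2 had a p under 0.05, beside 14.5% of tested genes, and DESeq2 called 0. The log2 difference of Grik5 between DN-HCN2 and truncated SK3 was 0.84 (edgeR adjusted p = 0.257, SE 0.34), with a 95% interval of 0.17 to 1.51. That of Grin2b, fitted with 1 group at 0, was 2.95 (edgeR adjusted p = 0.318, SE 1.34). The call of Grik5 under DN-HCN2 is therefore not shown to be particular to that construct.

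Between regions, Grin2b was higher in the base than in the apex without overlap under DN-HCN2 and in control, and overlapped under truncated SK3. It encodes GluN2B, a GluN2 subunit of immature synapses. In the base it had 10.7, 2.60 and 8.35 CPM under DN-HCN2, 2.24, 0.646 and 0 CPM under truncated SK3, and 0.436, 1.27, 1.09 and 3.10 CPM in control. In the apex replicate 1 of DN-HCN2 had 0.261 CPM, replicate 3 of control had 0.203 CPM, and the remaining 9 of 11 libraries were at 0. In counts, the base groups held 279 under DN-HCN2, 30 under truncated SK3 and 83 in control, and the apex groups held 4, 0 and 3. Such a separation was found for 3.63% of tested genes under DN-HCN2 and for 2.64% in control. Grin2b was among the tested genes only through its base libraries. Under truncated SK3 1 base library was also at 0, and the level was at least 11.4-fold higher in truncated SK3 base than in truncated SK3 apex with 3 counts over the group as the floor.

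Within a condition edgeR called none of the 10 genes between base and apex, beside 0.214% of tested genes under DN-HCN2, 0.0134% under truncated SK3 and 0% in control. Before adjustment, p was under 0.05 for 3 genes under DN-HCN2 (Grin2b, Grin2c and Grik1), 2 under truncated SK3 (Grin2b and Grin2c) and 1 in control (Grin2b), beside 12.1%, 9.58% and 4.82% of tested genes. DESeq2 called 1 under DN-HCN2 (Grin2b, adjusted p = 0.00904) and 0 in the other conditions. Grin2b reached the level of the low-count filter in 7 base libraries and 0 apex libraries. It thus entered these tests only through the region where it is higher, which limits what its p-values can show. Under truncated SK3, where same-numbered libraries of base and apex deviated together, edgeR with replicate number as a block also called 0 of the 10, and 1 of all tested genes in place of 2. The effect of truncated SK3 did not differ between base and apex by edgeR (0 of 10, beside 0% of tested genes). At an unadjusted p under 0.05 there was again 1, Grin2c, beside 3.64% of tested genes, and DESeq2 called 0.

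The regional difference averaged over the 3 conditions, a comparison added after seeing the data, gave a log2 fold change of 5.92 for Grin2b (edgeR adjusted p = 0.0168, SE 1.14). It was 1 of 10 genes called higher in the base, beside 0.575% of tested genes, or 1 of 10 in either direction beside 1.16%, with none called lower. The gene reached 0.764 CPM in 7 of 10 base libraries and 0 of 11 apex libraries and so entered the test only through the base, and its fitted fold change depends on the prior count. Leaving out replicate 2 of truncated SK3 apex ended the call (5.92, edgeR adjusted p = 0.0579), as did leaving out the 2 macrophage-rich libraries (6.13, edgeR adjusted p = 0.0536). Grin2c, with a log2 fold change of -4.37 (edgeR adjusted p = 0.120, SE 1.29), and Grik1, with 2.93 (edgeR adjusted p = 0.325, SE 1.35), did not pass, and Grik1 was at -0.064 without the 2 libraries rich in supporting cell or fibroblast markers. Grik3 went the other way under truncated SK3, where its 3 base libraries (0.306, 0 and 1.45 CPM) all lay below its 3 apex libraries (3.43, 1.80 and 1.68 CPM), as for 6.37% of tested genes, without a call.

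Markers of other cells also separated the regions. The 7 oligodendrocyte markers all had positive fold changes from this average, 2 of them called. Opalin was at 0 throughout DN-HCN2 apex, Opalin, Olig1 and Olig2 throughout truncated SK3 apex, and Olig2 throughout control apex. Among base libraries Grin2b was highest in DN-HCN2, where oligodendrocyte markers summed to 13.3 to 106 CPM, and replicate 1 of truncated SK3 base, with 4625 CPM, had 2.24 CPM of Grin2b. Hair cell markers went the other way, with 5 of 7 called lower in the base. Their part in the Grin2b difference was not tested.

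The kainate receptor partners had 1 of 11 tested members called higher, beside 2.45% of all tested genes, and 1 lower, beside 3.61%, under DN-HCN2 over both regions, and their median log2 fold change was 0.13, beside 0.03 over all tested genes. Klhl17, an actin-binding partner of GluK2, averaged 64.4 ± 10.98 CPM in DN-HCN2 base (n = 3), against 36.9 ± 10.1 CPM in control base (n = 4), with a log2 fold change over both regions of 0.67 (edgeR adjusted p = 0.0293, SE 0.18). In the apex Klhl17 averaged 45.7 ± 13.97 CPM under DN-HCN2, against 31.4 ± 7.54 CPM in control (n = 4 each). Cdh2, the N-cadherin gene, averaged 48.1 ± 5.45 CPM in DN-HCN2 base (n = 3), against 107 ± 10.2 CPM in control base (n = 4), with a log2 fold change over both regions of -0.78 (edgeR adjusted p = 0.00185, SE 0.13). In the apex Cdh2 averaged 71.9 ± 12.6 CPM under DN-HCN2, against 95.1 ± 16.7 CPM in control (n = 4 each), and the groups overlapped. Both also differed between DN-HCN2 and truncated SK3 (0.83 and -0.62, edgeR adjusted p = 0.0489 and 0.0468). The auxiliary subunit genes Neto1 and Neto2 were among the members not called.

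The NMDA receptor scaffold and transport genes had 1 of 22 called higher and 3 lower under DN-HCN2 over both regions, beside the same 2.45% and 3.61% of all tested genes. Their median log2 fold change was -0.13, beside 0.03 over all tested genes. Shank1, a postsynaptic scaffold, fell under both constructs, by 1.21 on the log2 scale under DN-HCN2 (edgeR adjusted p = 0.00156, SE 0.20) and by 1.49 under truncated SK3 (edgeR adjusted p = 0.000549, SE 0.22). In the base it averaged 17.0 ± 1.90 CPM under DN-HCN2 and 14.2 ± 5.32 CPM under truncated SK3 (n = 3 each), against 35.8 ± 5.04 CPM in control (n = 4). In the apex it averaged 17.4 ± 4.71 CPM under DN-HCN2 (n = 4) and 14.2 ± 4.75 CPM under truncated SK3 (n = 3), against 44.0 ± 6.61 CPM in control (n = 4). It was the 1 member of these 22 called under truncated SK3, beside 0.735% of all tested genes. Lin7c, a partner of the GluN2B transport complex, averaged 34.2 ± 12.2 CPM in DN-HCN2 base (n = 3), against 82.0 ± 8.05 CPM in control base (n = 4), and over the regions its log2 fold change averaged -1.10 (edgeR adjusted p = 0.000593, SE 0.17). In the apex Lin7c averaged 47.99 ± 15.1 CPM under DN-HCN2, against 91.6 ± 10.96 CPM in control (n = 4 each). The scaffold genes Dlgap3 and Dlgap4 went opposite ways, at -1.05 (edgeR adjusted p = 0.0305, SE 0.28) and 0.73 (edgeR adjusted p = 0.0196, SE 0.18).

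Of the NMDA receptor signalling genes, 0 of 25 were called higher and 1 lower under DN-HCN2, beside 2.45% and 3.61% of all tested genes. The 1 was Prkca, a protein kinase C gene, which averaged 17.4 ± 1.15 CPM in DN-HCN2 base (n = 3), against 34.9 ± 7.77 CPM in control base (n = 4), with a log2 fold change over both regions of -0.81 (edgeR adjusted p = 0.00666, SE 0.17). In the apex Prkca averaged 22.5 ± 4.70 CPM under DN-HCN2, against 34.6 ± 5.86 CPM in control (n = 4 each). None of the 11 tested genes for the supply of glycine and D-serine was called under either construct, beside 6.05% of all tested genes under DN-HCN2 and 0.735% under truncated SK3. The AMPA subunit genes also had 0 of 4 called under either construct, beside the same shares, with log2 fold changes under DN-HCN2 of -0.53 for Gria2, -0.25 for Gria3 and -0.13 for Gria4 (SEs 0.20, 0.17 and 0.21, edgeR adjusted p = 0.122, 0.407 and 0.767). Gria1 was near absent, at 0 CPM in every DN-HCN2 apex library and at most 8.80 CPM in any library.

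In the regional average, 2 of the 25 signalling genes were called, beside 1.16% of all tested genes, and they are named after their values were seen. Rasgrf1, a Ras exchange factor that binds GluN2B, had a log2 fold change of 3.46 (edgeR adjusted p = 0.0299, SE 0.74). It ran from 16.3 to 26.3 CPM in the base and 0 to 5.72 CPM in the apex under DN-HCN2, from 16.2 to 23.7 CPM in the base and 0.253 to 0.528 CPM in the apex under truncated SK3, and from 3.49 to 28.1 CPM in the base and 0 to 7.30 CPM in the apex in control. The regions of Rasgrf1 did not overlap under DN-HCN2, as for 3.63% of tested genes in that direction, and overlapped in control. Ptpn5, a tyrosine phosphatase that acts on GluN2B, went the other way, at -1.20 (edgeR adjusted p = 0.0492, SE 0.29), with 5.60 to 40.6 CPM in the base and 44.9 to 111 CPM in the apex under DN-HCN2, 14.3 to 41.7 CPM in the base and 66.2 to 69.5 CPM in the apex under truncated SK3, and 33.7 to 113 CPM in the base and 78.6 to 109 CPM in the apex in control. The regions of Ptpn5 did not overlap under truncated SK3, as for 6.37% of tested genes in that direction, and overlapped in control. For a difference of the construct effect between base and apex, 0 of the 25 signalling genes were called under either construct. Beside this stand 0.00668% of tested genes for DN-HCN2 and 0% for truncated SK3.

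Across the 21 libraries, the genes whose levels ranked most like those of the 3 most abundant subunit genes were sought among the 9555 genes that averaged 10 CPM or more. Grin1 was most like Abhd8 (Spearman rho 0.853), Flywch1 (0.812) and Bscl2 (0.805). Grik5 was most like Rtf1 (0.918), Abhd17b (0.870) and Inpp5a (0.870), and Grik4 was most like Pramef8 (0.783), Cdh9 (0.781) and Prkar1b (0.766). These values describe libraries that share 6 groups, 2 regions and their depth, with no test.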

How the data were processed

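The authors deposited 1 table of whole-number read counts per gene symbol, not normalized, for 21 libraries. Trimmomatic, HISAT2, DESeq2 and the builds GRCm38 and mm10 are named per the submitters' processing notes, and the counter, its annotation, strand setting and versions are not given in the sources used here. No column was left unmapped.

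After filterByExpr (14968 genes kept) and TMM scaling, edgeR 4.0.16 (R 4.3.3) fitted all 21 libraries by robust quasi-likelihood with 6 group means, so that the groups share 1 spread per gene. An effect over both regions is the mean of the base and apex effects. P-values were adjusted by Benjamini-Hochberg over all tested genes and calls made at 0.05. Levels are CPM, divided by the union of exons in GENCODE M21 where genes are compared. Each edgeR SE is the absolute log2 fold change divided by the square root of the quasi-likelihood F statistic. The 95% intervals are 1.96 of these SEs on either side, and so are approximate. A group with no counts was set to a floor of 3 counts over the group for fold bounds. Depth limits low genes, whose values rest on few counts, and bounds cover counting error only. At most 0.381% of any subunit gene's 50-base stretches occur in another gene.

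The named genes are the 10 subunits in every comparison, called members of 5 pathway lists, the AMPA subunits, and the 3 genes most like each of the 3 subunits with the highest mean CPM. The subunits and lists were chosen with earlier results of these data known. The code was tested on simulated data. Alternatives were RLE factors, no filter, 10 CPM in 3 libraries, the compared groups only, a replicate block, each library left out, leaving out libraries rich in macrophage or in supporting cell and fibroblast markers, a spline correction (5 degrees of freedom) for GC content and length over the 14455 genes with values, and DESeq2 1.42.0. Same-numbered libraries of base and apex deviated together in every pair only under truncated SK3 (r of 0.113 to 0.284 in 3 pairs, from the data, as the labels state no pairing). The regional average was added after seeing the data. Promoter windows are from RefSeq. Figures used Python 3.11.15 and matplotlib 3.10.9.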

Additional observations from a re-analysis of the deposited data

Results flagged for a closer look

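In groups of 4 libraries, 30 gene and group pairs were examined for 1 library whose gap to its nearest neighbour, as a part of the group's range, passed Dixon's 95% critical value, and 5 were found. Chance alone flags about 1 in 20 groups, a rate that does not apply to 4 of the 5, in which 1 library held the gene and the other 3 were at 0, so that the gap is the whole range. Grin3a in replicate 4 of DN-HCN2 apex had 6.42 CPM, with the other 3 libraries at 2.41 to 2.74 CPM. In the 4 pairs with the other 3 libraries at 0, Grin2b had 0.261 CPM in replicate 1 of DN-HCN2 apex and 0.203 CPM in replicate 3 of control apex. Grik1 had 0.299 CPM in replicate 4 of DN-HCN2 apex and 1.31 CPM in replicate 2 of control apex.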

How the results depend on the processing

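The count of subunit genes called under DN-HCN2 over both regions, 2 in all, fell to 1 with RLE size factors, with no low-count filter, with at least 10 CPM in 3 libraries and without the macrophage-rich libraries, and to 0 with the replicate block, with the GC and length correction and without the libraries rich in supporting cell or fibroblast markers. It was 0 to 1 when single libraries were left out, and 2 with DESeq2 and with the compared groups only. DESeq2 called 1 under DN-HCN2 in the base, 1 between base and apex under DN-HCN2, and 2 in the regional average, which had 0 with at least 10 CPM in 3 libraries, 0 without the macrophage-rich libraries and 0 to 1 when single libraries were left out. The counts of all other comparisons stayed at 0 under every alternative that could be run. Of the subunit genes, the filter of at least 10 CPM in 3 libraries kept only Grin1, Grin3a, Grik3, Grik4 and Grik5. Grin2c and Grin2b were not tested under that filter, so the absence of their calls there carries no information.

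Fold changes that turned sign were all uncalled. Without the macrophage-rich libraries, Grin1 under DN-HCN2 was at -0.20. Without the libraries rich in supporting cell or fibroblast markers, Grin2b under DN-HCN2 was at -0.39, and Grik1 between base and apex was at -3.49 under DN-HCN2 and -0.064 in the regional average. With the replicate block, Grin2d and Grik1 under truncated SK3 were at -0.058 and -0.11. When single libraries were left out, Grin2b and Grik1 under DN-HCN2 ran from -0.19 to 2.64 and from -5.16 to 1.69, Grik1 between base and apex under DN-HCN2 from -3.11 to 8.61, and Grin1, Grin2d, Grik1 and Grik5 under truncated SK3 from -0.17 to 0.11, -0.30 to 0.41, -3.09 to 3.06 and -0.14 to 0.43. The causes were not tested. The GC and length correction moved the median of all genes by up to 0.138 on the log2 scale (DN-HCN2 apex), and RLE by up to 0.0281.

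Outside base and apex of truncated SK3, the deviations of same-numbered libraries correlated at -0.246 to 0.27. They were over 0.1 in 4 of 20 pairs and in no comparison throughout. These correlations cannot tell whether same-numbered libraries came from the same animals. The block changed no call of a subunit gene between base and apex. With replicate number as a block, edgeR adjusted p was 0.0838 for Grik5 and 0.0681 for Grin2c under DN-HCN2. Depth limits Grin2b, Grin2c and Grik1 most, since they were at 0 in 10, 9 and 11 of 21 libraries.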
